A study of Mus musculus with 12 samples.

Results

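The oxidative stress and iron storage response was followed through 10 genes in B16F10 cells, a mouse melanoma line. The genes were picked by name: Hmox1, Nqo1, Gclc, Gclm, Txnrd1, Srxn1, G6pdx and Osgin1, which are targets of the transcription factor NRF2, and the ferritin genes Fth1 and Ftl1. They are 10 of the 55487 genes counted, and 9 of them held enough reads to be tested in each assay. The cells carried a control hairpin (shCtr) or the hairpin numbered 2 against Osgep (shOSGEP), and OSGEP is the enzyme that makes the t6A modification of tRNAs reading codons that start with A. Each genotype had 3 ribosome-protected fragment (RPF) libraries and 3 total RNA libraries, 12 in all, and the labels gave both genotypes the same replicate numbers. Confluent cells were given cycloheximide, which freezes ribosomes on the message, and active ribosomes were captured with a puromycin analogue. The knockdown rests on 1 hairpin in 1 line, the genotype is labelled WT or KD OSGEP, and the molecule of the total RNA libraries is labelled polyA RNA. In such bulk samples fewer cells of a type and less RNA per cell cannot be told apart.

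NRF2 is held in the cytoplasm and handed to degradation by KEAP1, and electrophiles or oxidants release it to the nucleus, where it competes with the haem-sensitive repressor BACH1 at antioxidant response elements. Its targets make glutathione, regenerate thioredoxin and NADPH, and break down haem. Haem breakdown frees iron, which ferritin stores. The ferritin messages carry an iron responsive element near their 5′ end, where iron regulatory proteins bind and hold the message out of translation while iron is scarce.

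The 2 iron responsive elements among the genes are shown first, since the ferritin results below concern footprints per RNA. They were found by searching the 5′ end of every annotated transcript for a C, a stem of 5 bases, the loop CAGTGN with a last base other than G, and 5 bases that pair with the stem. The pattern was present in 23 of 20971 protein-coding genes (0.110%), and in 2 of the 10 genes studied here. In the lines below the 6 loop bases are in capitals.
Fth1: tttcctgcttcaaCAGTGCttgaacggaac
Ftl1: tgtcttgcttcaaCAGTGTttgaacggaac
Slc40a1: ccaacttcagctaCAGTGTtagctaagttt
The Fth1 site lay at chr19:9982731-9982760 on the plus strand of GRCm38, 109 bases before the start codon of its transcript. The Ftl1 site lay at chr7:45459779-45459808 on the minus strand, 147 bases before the start codon. Slc40a1, which encodes the iron exporter ferroportin, is printed for comparison (chr1:45925465-45925494, minus strand).

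The antioxidant response element was searched in RefSeq promoters of GRCm38 (250 bases before to 50 after each start) with the letters TGACNNNGC on both strands. Of all 32851 promoters 12.4% held a match, and of the 27025 genes with a promoter 13.99% held one in at least 1 promoter. Promoters were given for 8 of the 10 genes, 11 promoters in all. Of these genes 4 held a match, Srxn1, Gclm, G6pdx and Txnrd1, the last at 1 of its 3 promoters. The matches are printed to show the letters of the element to which NRF2 binds with small MAF proteins, and a match is a description, not a bound site. Capitals mark the match, which lay on the strand opposite to the gene in each of the 4 windows.
Srxn1: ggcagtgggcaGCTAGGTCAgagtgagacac
Gclm: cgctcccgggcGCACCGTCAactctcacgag
Txnrd1: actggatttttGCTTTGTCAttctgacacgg
G6pdx: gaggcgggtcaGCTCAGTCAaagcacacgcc
These windows were chr2:152105541-152105571 (Srxn1), chr3:122245412-122245442 (Gclm) and chr10:82859103-82859133 (Txnrd1), all on the plus strand, and chrX:74428918-74428948 (G6pdx) on the minus strand. The promoters given for Nqo1, Osgin1, Fth1 and Ftl1 held no match within these 300 bases. Promoters of Hmox1 and Gclc were not matched.

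Total counts ranged from 46.7 M to 81.1 M (M, mega-reads) in total RNA and from 12.9 M to 40.3 M in RPF, of which 4.42 M to 17.0 M fell on protein-coding genes. Ribosomal RNA took 27.7% to 67.7% of an RPF library, with the highest share in shOSGEP replicate 1. The RNA of Osgep was lower in shOSGEP in 3 of 3 pairs, by 4.48, 1.18 and 1.17 on the log2 scale in pairs 1, 2 and 3. Its fitted change was −1.65 ± 0.77 (SE) in total RNA, and its edgeR adjusted p was 0.975. The footprints of Osgep were lower by 0.66, 0.92 and 0.98 in pairs 1, 2 and 3, with a fitted change of −0.84 ± 0.39, so that pair 1 had the deepest knockdown as RNA and the shallowest as footprints. Pair 1 also held the largest change in total RNA of 7 of the 9 genes, and values are therefore given pair by pair. All 7 melanocyte markers had a lower fitted level in shOSGEP, and their summed RNA level ran from 9665 to 16837 CPM (counts scaled per megaread of library) in shCtr and from 2655 to 12789 in shOSGEP. Markers of erythroid, leukocyte, epithelial and endothelial cells summed to at most 1.41 CPM in each list. The melanocyte markers had a median log2 change of −2.16, −0.36 and 0.062 in pairs 1, 2 and 3, so that the difference lay mostly in the pair that also held the largest change of Hmox1. In pair 3 the pigment enzyme Tyrp1 had 3688 CPM in shCtr and 5050 in shOSGEP total RNA, and Pmel, the fibril protein of the melanosome, had 1694 and 1996 CPM. In the same pair Dct had 2540 and 2652, Tyr 107 and 127, and Mitf 553 and 563 CPM. Sox10 and Mlana were lower in shOSGEP there, with 619 and 546 and with 463 and 456 CPM. None of the 7 melanocyte markers passed the test, and their part in the results below was not tested.

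Levels of the genes were first compared with each other. As counts per kilobase, scaled to the same sum in each library, Ftl1 stood highest in shCtr total RNA at 5770 ± 503 (SD, n = 3), followed by Fth1 at 753 ± 84.2. G6pdx and Txnrd1 had 170 ± 39.3 and 168 ± 29.5 on this scale, a difference below their spread. Srxn1 had 90.8 ± 10.96 and Hmox1 50.3 ± 9.30. Osgin1, Gclc and Gclm followed at 36.5 ± 6.51, 29.96 ± 6.45 and 20.8 ± 4.53. Osgin1 was above Gclc in each shCtr replicate, by little in replicate 3 (35.0 against 34.8). Nqo1, the quinone reductase that often serves as the read-out of NRF2, was nearly silent at 0.137 ± 0.0805. It had 3 to 21 reads per total RNA library and 0 to 3 reads per RPF library, too few to be tested in either assay. The plot of normalised counts by library shows the distance between Nqo1 and the other genes. Per kilobase of coding sequence the order of the RPF levels in shCtr began with Fth1 (2498 ± 1260), Ftl1 (1225 ± 830), Txnrd1 (453 ± 108) and Srxn1 (306 ± 77.3). Fth1 was above Ftl1 in each shCtr replicate, with 1714 against 909, 1829 against 598 and 3951 against 2166. This order takes the light chain as the Ftl1 row alone. Added over Ftl1 and 2 near-copies described below, light-chain footprints were 769, 587 and 1098 CPM in shCtr, above the 304, 309 and 593 CPM of Fth1. The merged coding exons of Fth1 and Ftl1 are 567 and 552 bases long.

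**Figure D1:**
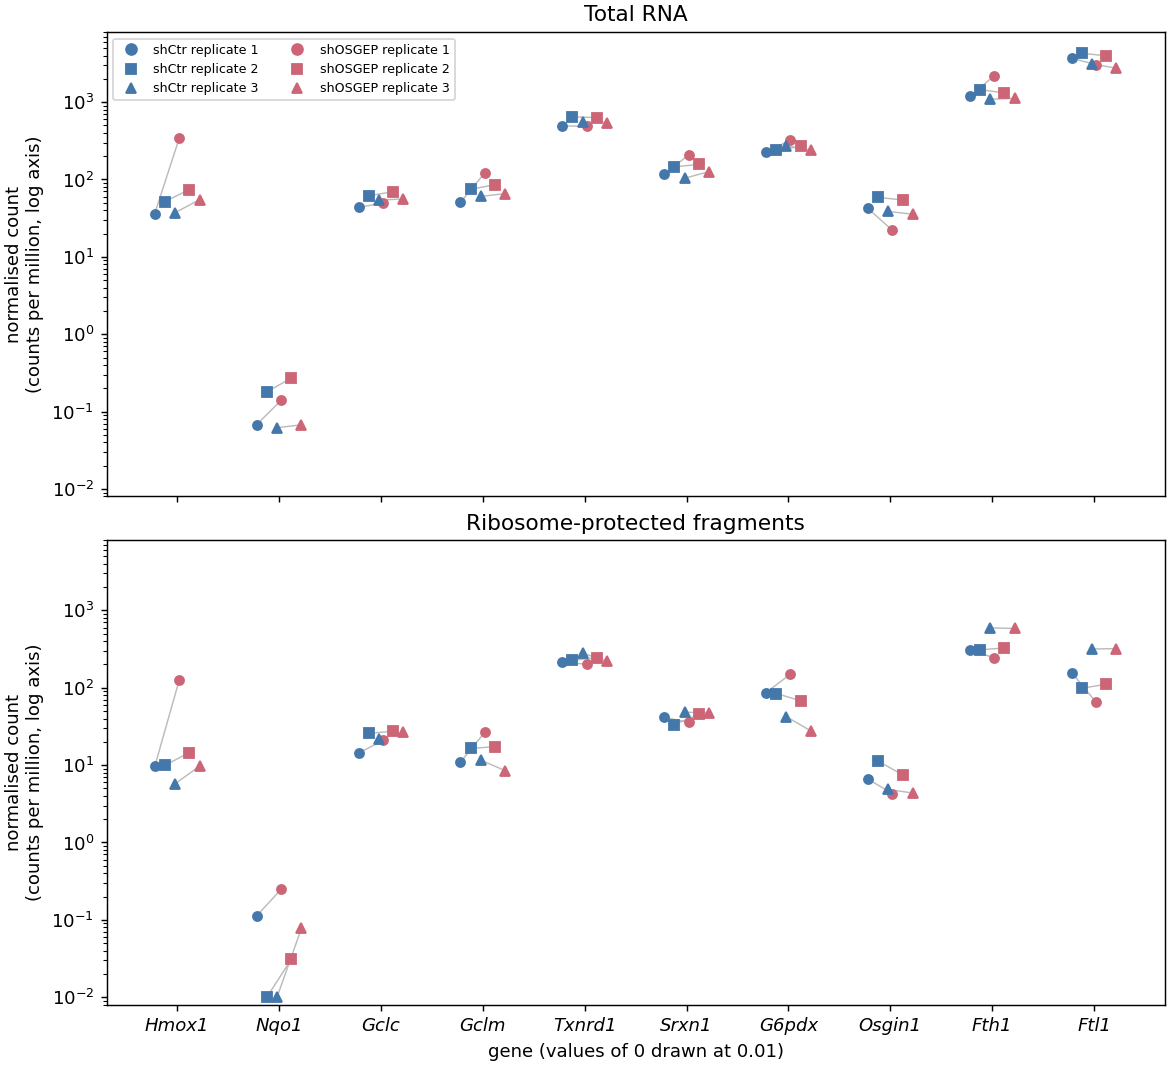
Normalised counts in CPM (log axis) of each gene in each library, with total RNA above and ribosome-protected fragments below; grey lines join libraries with the same replicate number. Hmox1 in shOSGEP replicate 1 (342 CPM in total RNA and 125 in RPF) stands far above its other libraries, and Nqo1 stays below 0.3 CPM throughout.

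The knockdown was then compared with the control in total RNA. Hmox1 (chr8:75093621-75100589, plus strand of GRCm38), the haem oxygenase that opens the haem ring and releases its iron, was the gene with the largest difference among the 9 tested. It had 36.4, 51.9 and 37.3 CPM in shCtr replicates 1, 2 and 3 and 342, 74.2 and 54.9 CPM in shOSGEP. All 3 shOSGEP libraries were above all 3 shCtr libraries, though replicate 1 stood far above the others. The groups were separated in this direction for 4% of the 14516 genes tested. The log2 change of Hmox1 was 1.91 ± 0.69 (SE), with 3.23, 0.51 and 0.56 in pairs 1, 2 and 3. In the edgeR quasi-likelihood fit its unadjusted p was 0.028 and its adjusted p 0.975. With the replicate number as a block the change was 1.38 ± 0.64 and the unadjusted p 0.086. Without shOSGEP replicate 1 the change was 0.62 ± 0.20.

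No gene passed the adjusted threshold in total RNA, so that 0 of the 9 genes were called against 0% of all genes. At an unadjusted p under 0.05, 221 genes were higher (1.52%) and 38 lower (0.262%), and Hmox1 was the only one of the 9 among them. DESeq2 called 8 genes, none of which was among the 9. The changes of the 9 genes had a median of 0.17, compared with 0.02 over all genes tested, and the median was 0.53, 0.10 and 0.036 in pairs 1, 2 and 3. Hmox1, Gclm, Gclc and Srxn1 were higher in 3 of 3 pairs (4 of 9, against 17.7% of all genes), and Txnrd1, Osgin1 and Ftl1 were lower in 3 of 3 pairs (3 of 9, against 16.2%), Txnrd1 by less than 0.03.

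The genes of glutathione synthesis are the catalytic subunit of glutamate-cysteine ligase, Gclc, and its modifier subunit, Gclm. Gclm had 50.4, 74.7 and 60.5 CPM in shCtr and 122, 85.7 and 65.8 CPM in shOSGEP total RNA. The groups overlapped, and shOSGEP replicate 1 was the highest library. Its log2 change was 0.56 ± 0.26, with 1.27, 0.20 and 0.12 by pair and an unadjusted p of 0.071 in edgeR. Gclc had a change of 0.13 ± 0.20, and its pairs gave 0.17, 0.17 and 0.060. In the thioredoxin branch, Srxn1, the sulfiredoxin that repairs overoxidised peroxiredoxins, had 117, 146 and 103.8 CPM in shCtr and 207, 157 and 126 CPM in shOSGEP, a change of 0.42 ± 0.23. Its pairs gave 0.83, 0.10 and 0.28. Txnrd1, the cytosolic thioredoxin reductase, had a change of −0.02 ± 0.17, and its libraries ran from 490 to 644 CPM without separation. G6pdx, which feeds NADPH to both systems, had a change of 0.17 ± 0.17 with pairs of 0.53, 0.16 and −0.19. Osgin1, an NRF2 target tied to growth inhibition, had a change in the other direction of −0.32 ± 0.34, and its pairs gave −0.94, −0.11 and −0.12. None of these 6 genes passed either threshold.

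The ferritin genes differed in total RNA by replicate. Fth1 (chr19:9980598-9985098, plus strand), the heavy chain with the ferroxidase centre, had 1184, 1454 and 1090 CPM in shCtr and 2192, 1314 and 1118 CPM in shOSGEP. Only shOSGEP replicate 1 lay above the control libraries. The log2 change was 0.31 ± 0.28, with 0.89, −0.15 and 0.036 by pair, and it was −0.04 without shOSGEP replicate 1. Ftl1, the light chain on which the iron core forms, had a change of −0.18 ± 0.22 and pairs of −0.27, −0.11 and −0.18.

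**Figure D2:**
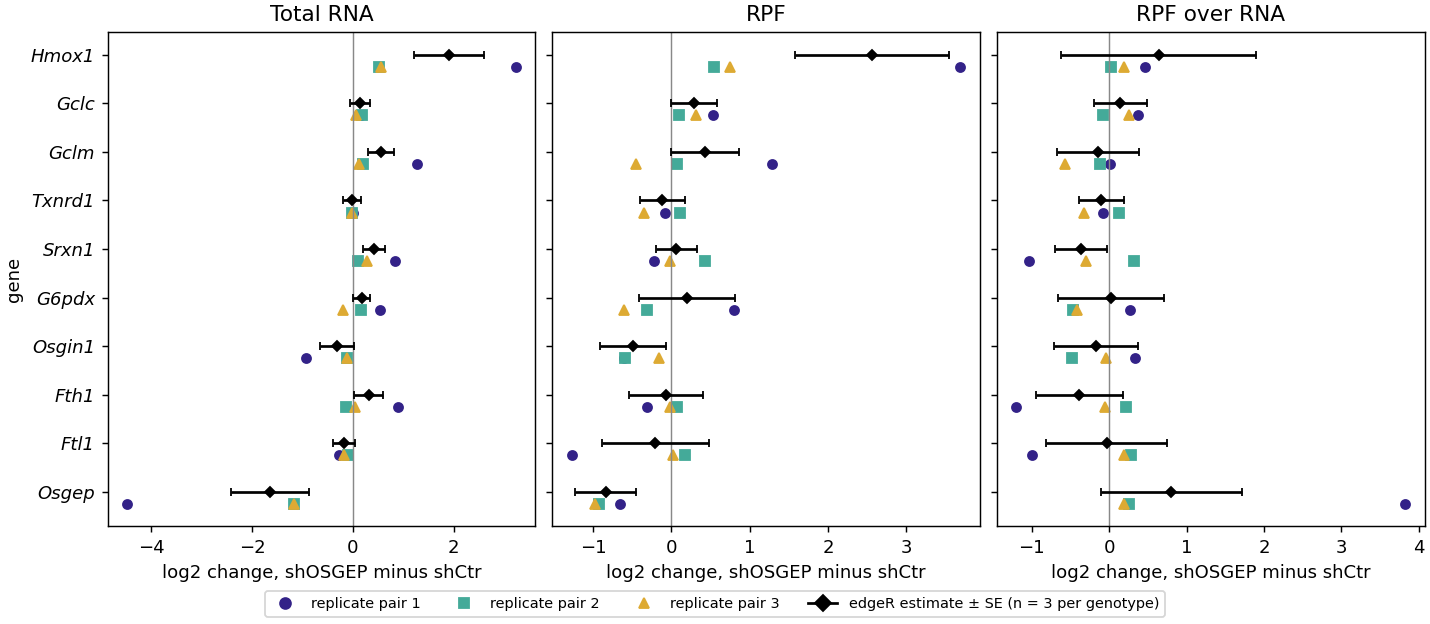
Log2 change of shOSGEP over shCtr (x axis) for each gene in total RNA, RPF and their ratio; black diamonds with bars are the edgeR estimates with their standard errors, coloured symbols the 3 replicate pairs. The first pair of Hmox1 (3.23 in total RNA and 3.69 in RPF) lies far to the right of its other pairs, and Osgep is drawn as the targeted gene.

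Footprints were compared in the same way. Hmox1 had 9.63, 9.94 and 5.75 CPM in shCtr RPF and 125, 14.5 and 9.69 CPM in shOSGEP RPF. Each shOSGEP library was above its own control, but the ranges overlapped, since shOSGEP replicate 3 fell between the controls. The log2 change was 2.56 ± 0.98, and the pairs gave 3.69, 0.54 and 0.75. Its unadjusted p was 0.034 in edgeR and its adjusted p 0.9998. With the replicate block the change was 1.60 ± 0.69 (unadjusted p 0.063), and without shOSGEP replicate 1 it was 0.51 ± 0.34 (unadjusted p 0.176). Hmox1 passed the adjusted threshold only when no filter on low counts was applied (adjusted p 2.25e-06, change 2.43 ± 0.41), and over the other alternatives its adjusted p ran from 0.817 to 0.99996. That setting called 229 genes in RPF.

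In RPF 0 of the 9 genes were called, against 0% of 13529 genes tested. Hmox1 was also the only one of the 9 at an unadjusted p under 0.05, which 0.754% of all genes reached in the higher direction. DESeq2 called 1 gene in RPF, which was not among the 9. Hmox1 and Gclc were higher in 3 of 3 pairs, against 15.7% of all genes, and Osgin1 was lower in 3 of 3 pairs, against 15.2%. Gclc had a change of 0.29 ± 0.29, and its pairs gave 0.54, 0.098 and 0.31. Osgin1 had a change of −0.49 ± 0.42 with −0.61, −0.59 and −0.15 by pair. Gclm had 10.9, 16.4 and 11.6 CPM in shCtr RPF and 26.7, 17.3 and 8.47 CPM in shOSGEP RPF, so that its pairs turned from 1.29 through 0.075 to −0.45. G6pdx had 0.80 in pair 1 and −0.31 and −0.61 in pairs 2 and 3. Srxn1 and Txnrd1 had changes of 0.06 ± 0.26 and −0.11 ± 0.29. The median of the 9 genes was 0.063, compared with 0.045 over all genes tested.

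The ratio of RPF to total RNA, the translational efficiency, was read from the assay by genotype term of a fit to all 12 libraries. No gene was called (0% of 12560 genes), 0.0717% were higher at an unadjusted p under 0.05, and none of the 9 genes was among them. Hmox1 had a log2 change of the ratio of 0.64 ± 1.26, with 0.46, 0.028 and 0.19 in the 3 pairs. It was the only one of the 9 that was higher in 3 of 3 pairs, against 11.6% of all genes. Srxn1 had the lowest unadjusted p of the 9, 0.29 in edgeR, with a change of −0.37 ± 0.34. A further fit held a block for each cell sample, which joins the RNA and RPF libraries of the same genotype and replicate. This cell-sample block does not pair the genotypes. The standard errors of the 9 genes ran from 0.29 for Txnrd1 to 1.26 for Hmox1, and with this block from 0.20 for Gclc to 0.80 for Ftl1. The block lowered the standard error of Hmox1 to 0.34, with a change of 0.23 and an unadjusted p of 0.52 in edgeR.

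In shCtr the genes differed in the ratio itself. The log2 ratio was ranked among 11311 protein-coding genes tested in both assays, whose median was −1.37, −1.39 and −1.37 in shCtr replicates 1, 2 and 3. Osgin1 had the percentiles 1.92, 4.96 and 1.73, Gclm 5.59, 8.28 and 7.25, and Hmox1 13.5, 4.92 and 3.24. These 3 genes stood near the bottom in every shCtr replicate on this ratio of CPM, which is not scaled to length. Gclm has 857 coding bases among 6291 exon bases. Per kilobase Gclm had 52.0 in shCtr RPF and 20.8 in total RNA, Hmox1 33.0 and 50.3, and Osgin1 17.9 and 36.5. Of the 3 genes only Gclm was thus higher in RPF, and no ranks were taken per kilobase. Gclc and Txnrd1 stayed within percentiles 30.1 to 72.1. G6pdx had percentiles of 49.5 and 41.5 in replicates 1 and 2 and 3.19 in replicate 3.

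Fth1 moved by replicate more than by genotype. Its ratio had the percentiles 11.5, 7.21 and 77.2 in shCtr replicates 1, 2 and 3, and 1.02, 14.5 and 70.6 in shOSGEP. Replicate 3 was the high one in both. The footprints of Fth1 were 304, 309 and 593 CPM in shCtr and 245, 326 and 584 CPM in shOSGEP, while its RNA in replicate 3 was not the highest of either genotype. In pair 1 the ratio was lower in shOSGEP by 1.20 with the RNA higher by 0.89 and the footprints lower by 0.31. Pairs 2 and 3 gave 0.22 and −0.06. The fitted change of the ratio was −0.39 ± 0.57, with an unadjusted p of 0.51 in edgeR. RPF depth on protein-coding genes moved with the replicate too, at 17.0 M and 12.6 M in the replicate 3 libraries against 4.42 M to 11.6 M in the other 4, and its part in the ratio was not tested.

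**Figure D3:**
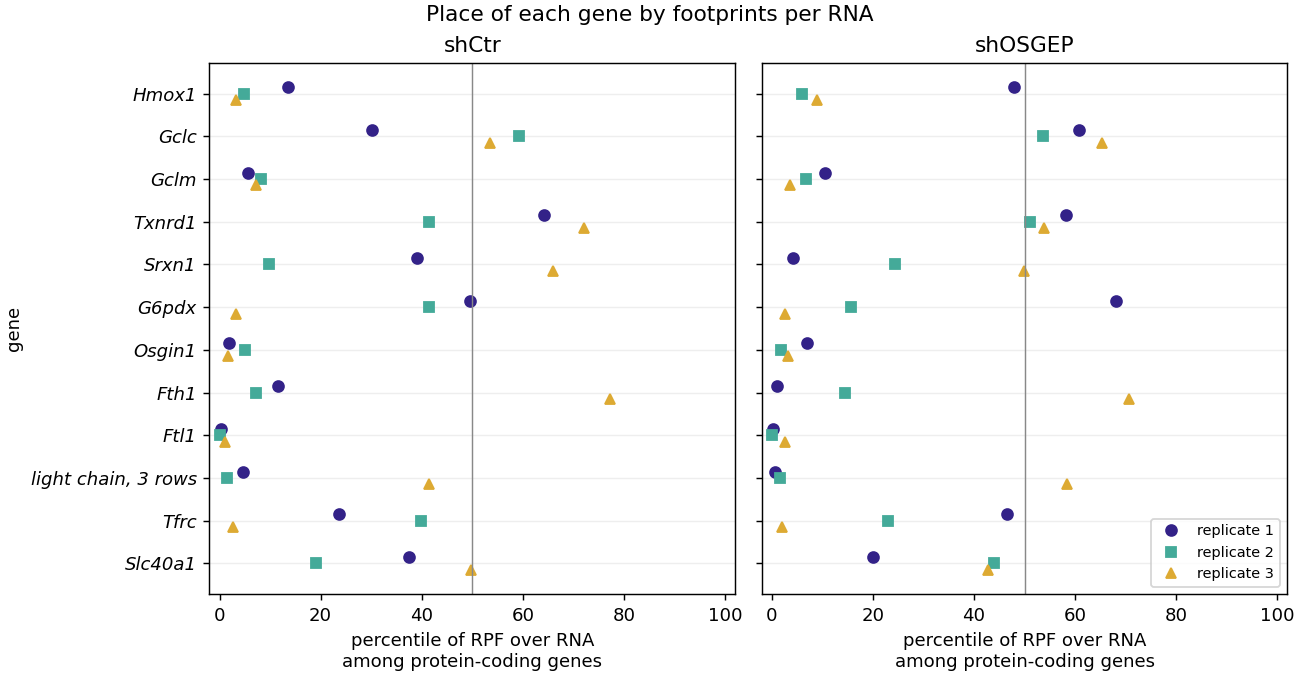
Percentile of each gene's RPF over RNA ratio among 11311 protein-coding genes (x axis) in shCtr (left) and shOSGEP (right), with 1 symbol per replicate. The ratio is of CPM and is not scaled to length. Fth1 and the light chain summed over its 3 annotated genes (3 rows) lie to the right in replicate 3 of both genotypes, and Tfrc lies to the left there.

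Other iron genes were set beside ferritin. Tfrc, the transferrin receptor, whose message carries its elements at the other end and is protected from decay by iron regulatory proteins, had the percentiles 23.5, 39.8 and 2.63 in shCtr and 46.6, 23.04 and 1.96 in shOSGEP. It was low in replicate 3 of both genotypes, where Fth1 was high. Slc40a1 had 37.5, 19.1 and 49.8 in shCtr and 19.99, 43.96 and 42.7 in shOSGEP, with no common place of replicate 3. Genes outside the iron lists differed in replicate 3 too. In shCtr RPF replicates 1, 2 and 3 Prdx1 had 179, 307 and 60.7 CPM and G6pdx 86.5, 84.2 and 42.2. Txnrd1 went the other way, with 213, 227 and 280 CPM. A part of iron in the places of Tfrc and Fth1 was not tested.

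The light chain needed its near-copies to be counted beside it. Ftl1 (chr7:45457944-45459884, minus strand, 549 coding bases) has a copy annotated as coding, Ftl1-ps1 (chr13:74399694-74407346), and a processed pseudogene, Ftl2-ps (chr4:125504288-125504839). Ftl1-ps1 was identical to Ftl1 at 547 of 549 coding bases, and Ftl2-ps at 542, with 7 mismatches. Ftl2-ps was taken at its whole annotated length of 552 bases, which left 3 bases unpaired with the Ftl1 coding sequence. Of the 522 possible stretches of 28 bases, the length of a footprint, 89.3% also occurred in Ftl1-ps1 and 70.7% in Ftl2-ps. At 100 bases the shares fell to 81.8% and 46.0%. For Fth1 26.6% of stretches occurred elsewhere in the genome, and for G6pdx 21.9%, all of them in G6pd2. The other 7 genes had none.

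The reads were divided among these genes in opposite ways in the 2 assays. In total RNA Ftl1 held 99.4% to 99.7% of the reads on the 3 genes, and Ftl2-ps had 0 to 3 reads per library. In RPF Ftl1 held 16.8% in shCtr replicate 2 (95% Wilson interval 16.04% to 17.5%) to 28.8% in shCtr replicate 3 (28.5% to 29.2%). Ftl2-ps took 52.8% to 65.7% and Ftl1-ps1 7.35% to 29.9% of the footprints. These intervals cover counting error only. As counts, Ftl2-ps had 8575, 5171 and 34018 footprints in shCtr and 1684, 10409 and 30152 in shOSGEP. The pseudogene Gm15590, which shared 77.0% of the stretches, had 0 to 65 footprints per library. Gm6977, the pseudogene that shared most stretches with Fth1, had 0 to 14 reads per library, and G6pd2 had 0 to 4. How reads with several matches were assigned is not given in the sources used here.

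**Figure D4:**
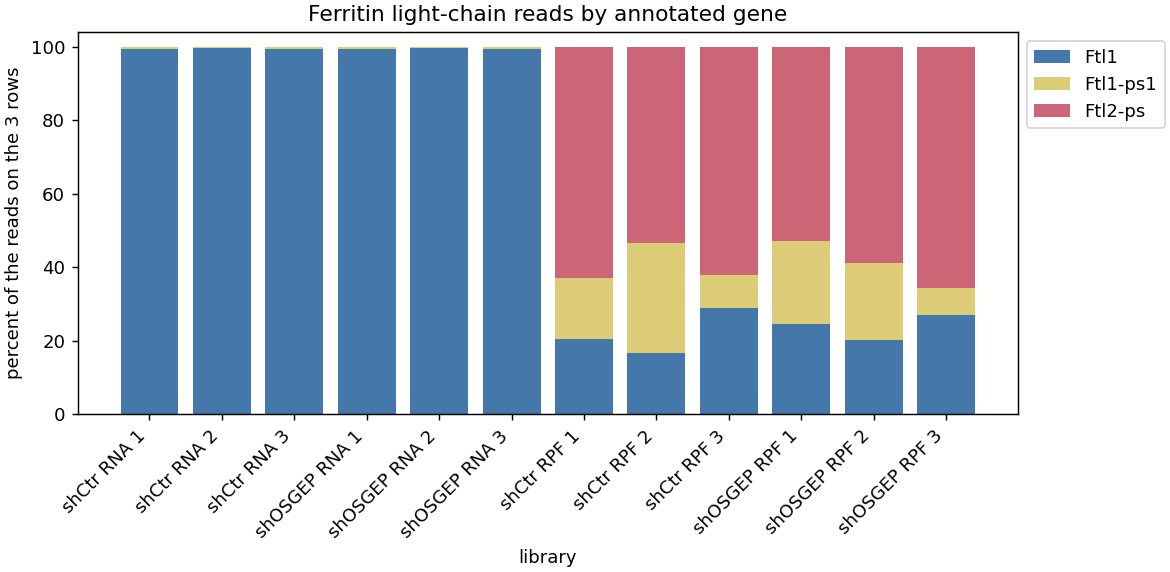
Percent of the reads on Ftl1, Ftl1-ps1 and Ftl2-ps (stacked bars) in each of the 12 libraries. Ftl1 fills the total RNA bars and 16.8% to 28.8% of the RPF bars, where Ftl2-ps holds 52.8% to 65.7%.

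Its place among all genes rested on which copies were counted. On its own Ftl1 had a log2 ratio of −4.43 ± 1.08 (SD, n = 3) in shCtr and percentiles of 0.23, 0.09 and 1.0. With the 3 genes added together, a choice made after the data were seen, the ratio was −2.22 ± 0.68, and the percentiles were 4.67, 1.53 and 41.5. In shOSGEP they were 0.645, 1.71 and 58.3. On this ratio, which is not scaled to length, the summed light chain thus stood low in replicates 1 and 2 and near the middle in replicate 3. This was the same order by replicate as that of Fth1. The change with genotype was small next to its error on either count. Footprints of Ftl1 alone had a log2 change of −0.20 ± 0.68 and those of the 3 genes −0.30 ± 0.59, and the interaction was −0.03 ± 0.78 and −0.12 ± 0.66. In pair 1 the footprints on the 3 genes were 769 CPM in shCtr and 263 CPM in shOSGEP. In pairs 2 and 3 they were 587 against 547 and 1098 against 1189.

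The codons read by tRNAs with t6A were counted in the coding sequences. Codons that start with A made up 17.5% of Ftl1, 19.9% of Osgin1 and 20% of Srxn1, the lowest of the 10 genes. Gclc had the highest share at 29.4%. The median of the 10 genes was 26.5%, compared with 27.0% over 11310 genes. Ftl1 stood at percentile 4.01 and Osgin1 and Srxn1 at 8.89 and 9.19.

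The other genes of these pathways were read from lists of regulators, further targets, glutathione and iron genes. Nfe2l2, which encodes NRF2, had a change of −0.01 ± 0.14 in total RNA and −0.07 ± 0.34 in RPF. Keap1 had 0.04 ± 0.16 and −0.15 ± 0.25, and Bach1 had −0.22 ± 0.15 and −0.19 ± 0.33. Of the 10 regulators none passed the unadjusted threshold. The lowest unadjusted p belonged to Nfe2l1, the related factor that answers to proteasome load, with 0.89 ± 0.40 (pairs 1.49, 0.26 and 0.48) as total RNA and 0.68 ± 0.33 as footprints. With the replicate block its unadjusted p was 0.045 and 0.029 in edgeR. In that fit 2.51% of all genes in total RNA and 2.54% in RPF were higher at an unadjusted p under 0.05. Sqstm1, the autophagy receptor that binds KEAP1, had 0.41 ± 0.20 and 0.64 ± 0.57. Of 22 further NRF2 targets 18 were tested. Of these 9 had positive and 9 negative values in total RNA, with a median of 0.007, and 0 passed the unadjusted threshold. Abcc1 and Gstp1 had the lowest unadjusted p there, with changes of 0.45 ± 0.27 and −0.22 ± 0.14. In RPF these were Mgst1 (1.27 ± 0.84) and Cbr3 (−0.53 ± 0.38). The RPF pairs gave 1.86, −0.20 and 0.47 for Mgst1 and −1.06, −0.23 and −0.38 for Cbr3. The 18 further targets had an RPF median of 0.059, with 0.42, −0.25 and −0.29 in pairs 1, 2 and 3.

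**Figure D5:**
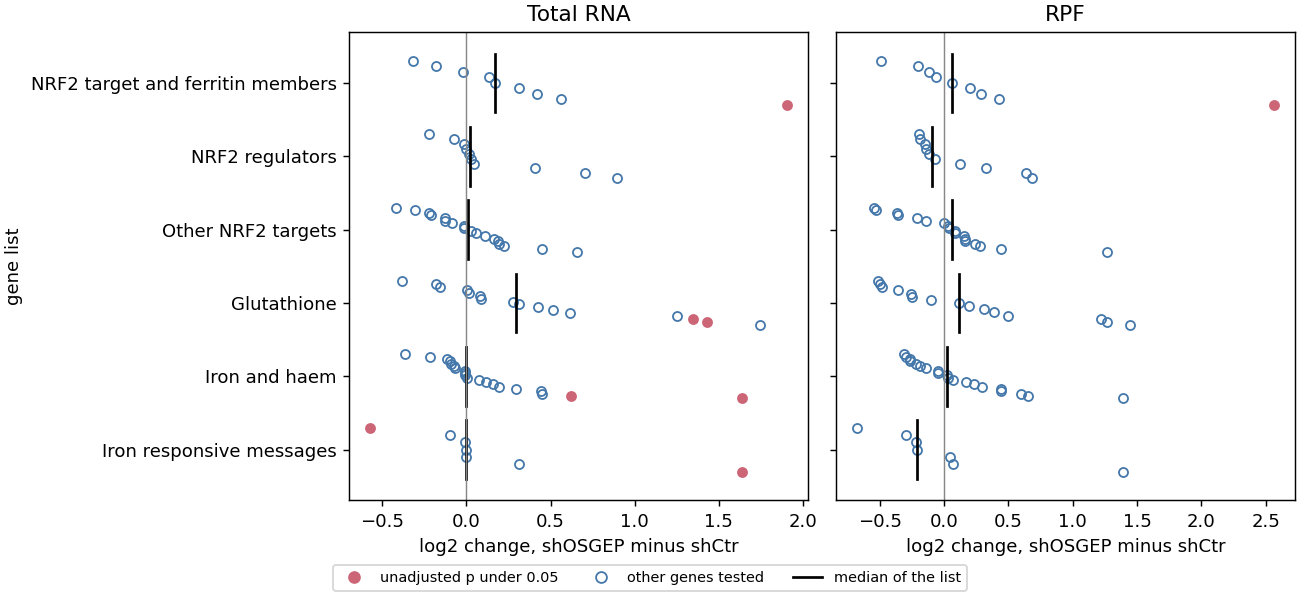
Log2 change of shOSGEP over shCtr (x axis) of every tested gene of each list in total RNA (left) and RPF (right); filled points have an unadjusted p under 0.05 and black bars are list medians. The glutathione list has its total RNA median at 0.30, and the further NRF2 targets lie around 0.

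Glutathione genes had the highest list median. Of the 16 genes tested in total RNA 13 had a positive change, as had 7712 of all 14516 genes tested. The median was 0.30, with 0.41, 0.13 and 0.16 in pairs 1, 2 and 3. The unadjusted threshold was passed by 2, against 1.52% of all genes in the higher direction. Those were Chac1, the enzyme that degrades glutathione and is induced by ATF4, and Cth, which makes cysteine from cystathionine. Chac1 had 29.4, 14.5 and 17.7 CPM in shCtr and 103.8, 24.8 and 37.8 CPM in shOSGEP total RNA, a change of 1.43 ± 0.56 with pairs of 1.82, 0.78 and 1.09. Its groups overlapped at shCtr replicate 1, yet each shOSGEP library was above its own control. Its unadjusted p was 0.037 in edgeR and 0.004 with the replicate block. Its footprints had a change of 1.26 ± 0.55. Cth had a change of 1.35 ± 0.48 in total RNA, with pairs of 2.28, 0.093 and 1.19. In RPF its change was 1.44 ± 0.71 and its pairs gave 2.28, −0.24 and 1.64, so that pair 2 moved little as RNA and the other way as footprints. Slc7a11, the cystine importer, had 0.42 ± 0.33 and −0.10 ± 0.50. The reductase Gsr had −0.16 ± 0.27 in total RNA, the synthetase Gss 0.08 ± 0.23, and the lipid peroxidase Gpx4 −0.18 ± 0.14. In RPF the list had a median of 0.12, with 0.43, −0.23 and −0.14 in pairs 1, 2 and 3. There 0 of 15 genes passed the unadjusted threshold. With the replicate block 1 did, Chac1, with a change of 1.09 ± 0.29 and an unadjusted p of 0.012 in edgeR. In that fit 2.54% of all 13529 genes did in the higher direction.

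Of the iron and haem genes 20 were tested, 10 with positive and 10 with negative values in total RNA and a median of −0.002. Slc40a1 and Blvrb, 2 of the 20, passed the unadjusted threshold in the higher direction, which 1.52% of all genes did. Neither did with the replicate block (unadjusted p 0.053 and 0.055 in edgeR). Slc40a1 had 5.48, 5.10 and 11.7 CPM in shCtr and 42.8, 13.6 and 12.9 CPM in shOSGEP total RNA, a change of 1.64 ± 0.57 with pairs of 2.96, 1.41 and 0.14. All shOSGEP libraries were above the controls, by little in pair 3. Its RPF change was 1.39 ± 0.60, with −0.03 in pair 3, and its unadjusted p in RPF was 0.053 in edgeR and 0.048 with the replicate block. Blvrb, which encodes biliverdin reductase B, had 0.62 ± 0.25 in total RNA, with pairs of 1.09, 0.59 and 0.059, and 0.66 ± 0.53 in RPF. Blvra, which encodes biliverdin reductase A, had −0.007 ± 0.15 in total RNA and 0.07 ± 0.36 in RPF. Fbxl5, the iron sensor that removes iron regulatory protein 2, had 0.44 ± 0.19 and 0.30 ± 0.23. The iron regulatory proteins themselves, Aco1 and Ireb2, had −0.07 ± 0.16 and 0.003 ± 0.12 as total RNA, and −0.26 ± 0.35 and −0.26 ± 0.24 as footprints. Tfrc had −0.10 ± 0.20 and −0.29 ± 0.52, Slc11a2, an iron importer, −0.01 ± 0.20 and −0.22 ± 0.26, and Ncoa4, the receptor for ferritin autophagy, 0.16 ± 0.17 and 0.02 ± 0.44. Among the 7 messages known for iron responsive elements, Epas1 passed the unadjusted threshold in the lower direction, which 0.262% of all genes did. It had 43.7, 32.3 and 36.4 CPM in shCtr and 24.4, 24.2 and 27.0 CPM in shOSGEP total RNA, a change of −0.57 ± 0.16 (unadjusted p 0.010 in edgeR). The 3 shOSGEP libraries were below all controls, as for 3.09% of all genes, with pairs of −0.84, −0.42 and −0.43, and its RPF change was −0.67 ± 0.32. No gene of these lists passed the adjusted threshold in edgeR in either assay.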

How the data were processed

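Ribosome footprints and total RNA were measured in 12 libraries. The authors deposited raw read counts per Ensembl gene. Per the study's methods, footprint reads were trimmed of linker and degenerate bases, aligned by STAR to the coding transcriptome of GRCm38 with perfect matches kept, and for another analysis aligned again to the genome. For RNA sequencing the methods name STAR on GRCm38 and Salmon. The deposited footprint counts include ribosomal RNA and pseudogenes. Which alignment gave each table, how genes were counted and the rule there for reads with several matches are not given in the sources used here. Of the gene IDs, 55227 matched GENCODE M21 (GRCm38) and 260 did not.

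Genes kept by filterByExpr were scaled by TMM and tested with edgeR 4.0.16 (quasi-likelihood, R 4.3.3), with Benjamini-Hochberg adjustment over all genes tested and a threshold of 0.05. Total RNA and RPF were fitted separately. CPM used the same scaling, and log2 values of single libraries and pairs a prior count of 2. Per-length levels used merged exons for total RNA and coding bases for RPF. Protein-coding footprints ran from 4.42 M to 17.0 M per library, and the part of this depth in the spread was not tested.

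The study's methods name edgeR and DESeq2 on triplicates and mention no block, and none was used in the main fits here. The replicate number was checked as a pairing. Libraries with the same number deviated from their group means together (r across genes 0.287 to 0.542 in total RNA and 0.508 to 0.665 in RPF). A fit with the replicate number as a block was run as an alternative in each of these assays. For the ratio the block was the cell sample, which joins its RNA and RPF libraries and does not pair the genotypes. The study's methods give replicates as independent transductions for every experiment. No library repeated another (chi-square per degree of freedom at least 81.1). The fits were also run on simulated counts with a single fixed dispersion and no replicate effect. That run therefore does not bear on the spread between replicates here. Alternatives were other size factors, other filters, protein-coding genes only, DESeq2 1.42.0, the block, and libraries left out.

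All 10 genes were named, with a set list of regulators, iron and glutathione genes and the 2 genes of each list with the smallest unadjusted p in each assay. Genes and lists were chosen with earlier results of these data known.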

Additional observations from a re-analysis of the deposited data

How the results depend on the processing

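In total RNA, DESeq2 called 8 genes, the replicate block 1, and an unadjusted p under 0.05 with a log2 change over 0.5 (the thresholds without adjustment) 223, of which 1 was among the 9 genes tested here. In RPF, DESeq2 called 1 gene, no filter on low counts 229 and the thresholds without adjustment 139, with 1 of the 9 genes, Hmox1, in each of the last pair. For the ratio the thresholds without adjustment called 17 genes. Every fit with libraries left out called 0 genes. With the replicate block, which treats the same-numbered libraries as pairs, the median change of the 9 genes was −0.047 in RPF. For the ratio, with the cell-sample block, the median change was −0.21. With libraries left out it ran from −0.026 to 0.33 in total RNA, −0.11 to 0.33 in RPF and −0.13 to 0.036 for the ratio. The median log2 ratio of the genes in shCtr, −1.86, was −0.50 with protein-coding genes only, a shift of 1.34 to 1.38 in each gene that follows from the smaller totals, and −2.10 to −2.03 with 1 shCtr replicate left out.

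Small changes turned sign. G6pdx was −0.047 in RPF with the replicate block, −0.22 for the ratio with the cell-sample block, and −0.016 for the ratio with no filter. The ratio of Ftl1 was 0.0028 with protein-coding genes only. With libraries left out, the total RNA changes ran from −0.016 to 0.26 for Gclc, −0.13 to 0.089 for Txnrd1, −0.026 to 0.33 for G6pdx and −0.075 to 0.54 for Fth1. The RPF changes ran from −0.12 to 0.76 for Gclm, −0.24 to 0.022 for Txnrd1, −0.11 to 0.20 for Srxn1, −0.58 to 0.61 for G6pdx, −0.50 to 0.33 for Fth1 and −1.12 to 0.38 for Ftl1. The changes of the ratio ran from −0.097 to 0.83 for Hmox1, −0.30 to 0.0079 for Gclm, −0.24 to 0.036 for Txnrd1, −0.71 to 0.0019 for Srxn1, −0.62 to 0.35 for G6pdx, −0.32 to 0.078 for Osgin1, −0.997 to 0.21 for Fth1 and −1.04 to 0.66 for Ftl1. The cause of these turns was not tested. The RPF libraries held 4.42 M to 17.0 M protein-coding footprints each, and the part of depth in the turns was not tested either.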

Other observations

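Gpx4 and Ncoa4 ranked low on the ratio of RPF CPM to RNA CPM, which is not scaled to length. Gpx4, a selenoprotein that removes lipid peroxides, had the percentiles 0.44, 0.29 and 0.41 of RPF over RNA in shCtr replicates 1, 2 and 3 and 0.85, 0.27 and 0.17 in shOSGEP. Its log2 ratio in shOSGEP replicate 3 was −5.55, compared with −3.93 in shCtr replicate 3. Ncoa4 had the percentiles 1.32, 6.24 and 1.54 in shCtr and 3.38, 4.20 and 1.20 in shOSGEP. These ranks rest on single-library ratios, and nothing was tested on them.

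The log2 change of the ratio of Slc7a11 was −0.62, −0.21 and −0.77 in pairs 1, 2 and 3. Its fitted interaction was −0.53 ± 0.63 in edgeR and −0.54 ± 0.28 with the cell-sample block (unadjusted p 0.090 in edgeR). Gpx1, another selenoprotein, had −1.08, −0.01 and −0.44, and its unadjusted p was 0.098 in edgeR and 0.103 with the cell-sample block. With these genes included, 4 of the 15 glutathione genes tested were lower in 3 of 3 pairs for the ratio. Of all 12560 genes 11.2% were.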
